A study of Homo sapiens with 9 samples.

Results

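The 31 genes described here are the semaphorins of classes 3 to 7, the plexins and both neuropilins, taken by name from the 60642 genes of the count table. The names gave 20 ligands, 9 plexins and 2 neuropilins, and each was followed through 3 groups of SNU-398 cells. SNU-398 is a human hepatocellular carcinoma line, and all groups were transduced with lentivirus and selected with puromycin. The 3 vector control libraries carried no added EMX1, the 3 EMX1-FL libraries came from cells stably overexpressing full-length EMX1, and the 3 EMX1-X1 libraries from cells overexpressing the splice isoform with an alternative terminal exon, which lacks part of the homeodomain. EMX1 is a homeobox transcription factor of the developing cerebral cortex, and all groups also carried the line's own EMX1 gene. Whether each stable line was a pool or 1 clone is not given in the sources used here. Nor do the labels say whether the 3 libraries of a group came from separate cultures, although the study's figure legends describe their replicates as biological, and the p-values measure the spread between these libraries.

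Semaphorins are secreted or membrane-bound signalling proteins that share an extracellular sema domain. Most of them signal through plexins, whose cytoplasmic part acts on small GTPases and so on the cytoskeleton and on integrin adhesion, while most secreted class 3 semaphorins need a neuropilin as the ligand-binding co-receptor. The family was first known from axon guidance and is also studied in vessel growth and in the migration of tumour cells, and neuropilins bind members of the VEGF family as well.

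Total counts ranged from 21562703 to 25197970 read pairs per library, and 18574 genes, 29 of the 31 among them, had enough counts to be tested. EMX1 was measured at 9.3 to 12.9 CPM, counts scaled to 1000000 per library, in the vector control, at 134.9 to 251 in EMX1-FL and at 144.8 to 294 in EMX1-X1, so the added gene was found where labelled. These counts sum both isoforms. Of 6 hepatocyte lineage markers, AFP and TTR were at 0 in all 9 libraries, ALB did not exceed 2.77 TPM, the length-normalised equivalent, and the list summed to 0.563 to 1.04 TPM in the vector control, 1.91 to 3.4 in EMX1-FL and 1.14 to 2.61 in EMX1-X1, so these hepatocyte markers were near absent. Of the epithelial markers, KRT18 was at 0, EPCAM at 3.6 to 8.57 and CDH1 at 0.903 to 2.39 TPM, and the list summed to 4.52 to 7.44 TPM in the vector control, 6.57 to 9.85 in EMX1-FL and 6.4 to 9.91 in EMX1-X1. Of the 4 mesenchymal markers, VIM was at 703 to 1116 TPM and CDH2 at 9.2 to 18.1 TPM. FN1 was at 33.15 to 36.4 TPM in the vector control, 48.4 to 62.5 in EMX1-FL and 52.2 to 55.7 in EMX1-X1. ZEB1 was at 0.202 to 0.625, 0.282 to 1.28 and 0.526 to 0.604 TPM in the same order. The list summed to 749 to 1010 TPM in the vector control, 921 to 1190 in EMX1-FL and 811 to 893 in EMX1-X1. Endothelial and leukocyte lists summed to at most 0.573 TPM. The 4 neuronal markers summed to 21.0 to 22.6 TPM in the vector control, 22.7 to 41.1 in EMX1-FL and 25.6 to 41.8 in EMX1-X1, and their part in the results below was not tested.

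The 9 libraries also split in a way that did not follow the groups. The first principal component, with 39.6% of the variance, put vector control 1 and 2, EMX1-FL 2 and 3 and EMX1-X1 1 on one side (side A) and vector control 3, EMX1-FL 1 and EMX1-X1 2 and 3 on the other (side B). Across 17752 genes, which are not independent replicates, the difference between the sides rose with the GC content of the transcript (Spearman's correlation 0.808). EMX1-X1 thus had 2 of 3 libraries on side B, and the other groups 1 of 3 each. Results are therefore given with the within-side values, and with a correction for GC content, where these change them. Each within-side value rests on 1 or 2 libraries per group and is given without an SE. The side B minus side A differences are plain differences of means, not adjusted for group. For a gene that differs in EMX1-X1 they therefore mix side and group.

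The bases before the annotated start of 4 ligand genes are shown because these genes lie at both ends of the changes described below, and because homeodomain proteins commonly bind sites with a TAAT core. SEMA3C, SEMA3E and SEMA3D lie in the same interval of chromosome 7, with other genes between them, and SEMA7A was higher in both overexpression groups. Each line gives the 250 bases before 1 of the RefSeq starts (GRCh38.p14, all on the minus strand), 5′ to 3′, with TAAT and its reverse complement ATTA in capitals. The windows are chr7:80922390-80922639 for SEMA3C, chr7:83649140-83649389 for SEMA3E, chr7:85187057-85187306 for SEMA3D and chr15:74433959-74434208 for SEMA7A.
SEMA3C: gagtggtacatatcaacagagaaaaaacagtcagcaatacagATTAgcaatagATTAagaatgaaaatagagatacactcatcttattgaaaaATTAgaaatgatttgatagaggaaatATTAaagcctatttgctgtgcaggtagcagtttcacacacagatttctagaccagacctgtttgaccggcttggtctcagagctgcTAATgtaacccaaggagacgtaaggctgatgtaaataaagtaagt
SEMA3E: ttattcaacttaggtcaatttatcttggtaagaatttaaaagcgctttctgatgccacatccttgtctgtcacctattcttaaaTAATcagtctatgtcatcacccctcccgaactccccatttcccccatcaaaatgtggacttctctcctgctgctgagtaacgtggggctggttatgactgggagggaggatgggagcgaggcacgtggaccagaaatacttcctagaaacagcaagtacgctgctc
SEMA3D: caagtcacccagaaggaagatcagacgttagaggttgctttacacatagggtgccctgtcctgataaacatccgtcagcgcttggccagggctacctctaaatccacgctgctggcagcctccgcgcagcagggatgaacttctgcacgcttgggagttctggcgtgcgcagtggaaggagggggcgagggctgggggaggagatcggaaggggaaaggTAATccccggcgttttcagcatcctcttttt
SEMA7A: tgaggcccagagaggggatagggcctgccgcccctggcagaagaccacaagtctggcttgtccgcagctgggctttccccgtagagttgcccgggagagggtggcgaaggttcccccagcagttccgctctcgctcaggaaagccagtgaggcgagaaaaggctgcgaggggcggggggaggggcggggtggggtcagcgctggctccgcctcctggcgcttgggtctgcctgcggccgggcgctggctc
The SEMA3C window held 5 TAAT cores at a GC content of 36.4%. The SEMA3E and SEMA3D windows held 1 each, and the SEMA7A window, with 70.0% GC, held none. These counts depend on the annotated start taken. At another RefSeq start SEMA3C (chr7:80919052-80919301, 77.6% GC) held 1 core and SEMA3E (chr7:83641432-83641681, 34.8% GC) held 5, so the genes are not contrasted by them. Windows of the same length stood in the RefSeq table for 27 of the 31 genes, in 48 windows, of which 20 (41.7%) held TAAT on either strand, against 47.4% of all 35116 windows. The longer palindrome TAATTA was in 0 of the 48 windows and in 4.35% of all windows. A match is a description of these letters and not evidence of binding.

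By length-normalised level, SEMA6B stood first among the 31 genes, with a mean of 111.8 TPM over the 9 libraries. NRP2 followed with 80.6 TPM, then SEMA6C (73.6), SEMA4C (66.8), the plexin PLXNB2 (63.7) and SEMA3A (58.6). The ranges over the libraries of neighbours in this order overlapped, for example 40.1 to 126.3 TPM for SEMA6C and 51.1 to 96.3 TPM for SEMA4C, so the order among them is not resolved. In the vector control NRP2 stood first (mean 103.5 TPM), above all SEMA6B values there (64.6 to 79.9 TPM), and the lead of SEMA6B over all libraries came from EMX1-X1, with a mean of 182.2 TPM. A lower step began with SEMA3C at 27.2 TPM. Of the 20 ligands, 19 had a mean of at least 1 TPM, as did 6 of 9 plexins and 1 of 2 neuropilins. NRP1, PLXNB3, PLXNA2, SEMA5B and PLXNA4 lay below. SEMA5B had 3 to 16 counts per library and PLXNA4 0 to 3, and neither was tested. PLXNA4 had 0 counts in the 3 EMX1-FL libraries, which allows up to 0.126 to 0.139 CPM per library, counting error only.

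**Figure D1:**
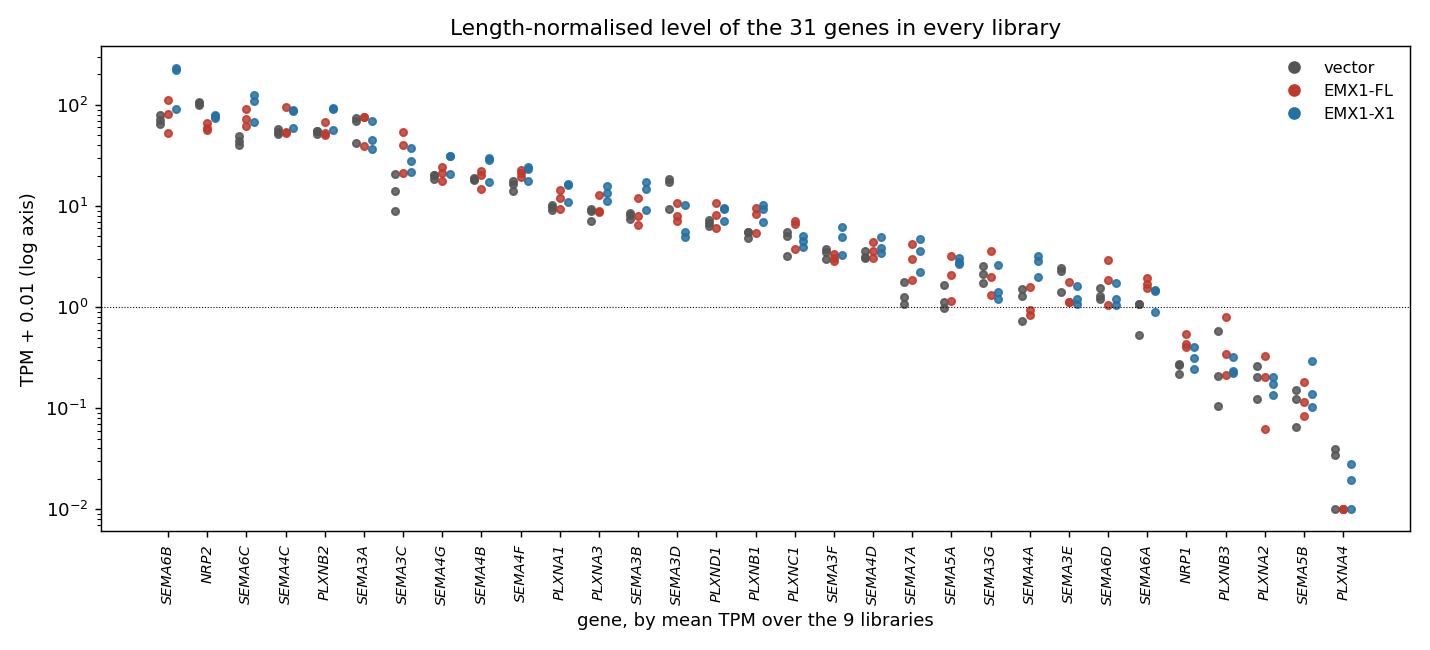
Length-normalised level (TPM + 0.01, log axis) of the 31 genes in each of the 9 libraries, ordered by the mean over all libraries, with 1 point per library coloured by group. The dotted line marks 1 TPM, which 26 genes exceed on average, from SEMA6A at 1.28 to SEMA6B at 111.8 TPM.

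Summed by class, the 20 ligands reached 307.5 to 377 TPM in the vector control, 369 to 471 in EMX1-FL and 419.6 to 653 in EMX1-X1. The 9 plexins reached 87.6 to 92.1 TPM in the vector control, 87.2 to 119.5 in EMX1-FL and 98.8 to 149 in EMX1-X1. The highest sums were those of EMX1-X1 2 and 3, both on side B, at 653 and 607 TPM for the ligands and 149 and 143.5 for the plexins, with EMX1-X1 1 on side A at 419.6 and 98.8. The neuropilins moved the other way, with 100.7 to 106 TPM in the vector control, 56.5 to 67.0 in EMX1-FL and 74.5 to 79.9 in EMX1-X1. The 3 ranges of the neuropilin sum were apart, and NRP2 made up 99.2% to 99.8% of it in every library.

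NRP2, the neuropilin that binds SEMA3C and SEMA3F as well as VEGFC, had its 6 overexpression libraries below all 3 vector control libraries. Its level was 390.3, 412 and 428 CPM in vector control 1 to 3. It was 252, 209.8 and 213 CPM in EMX1-FL and 273, 286 and 298 CPM in EMX1-X1. The 3 groups did not overlap at any step, with the vector control highest and EMX1-FL lowest, an arrangement with EMX1-FL farthest from the vector control that 100 of 18574 genes (0.538%) had. The log2 fold change was -0.87 ± 0.14 (SE, n = 3 per group) for EMX1-FL against vector control, with an adjusted p of 0.0627 by the quasi-likelihood test of edgeR, Benjamini-Hochberg corrected over the 18574 genes. For EMX1-X1 against vector control it was -0.52 ± 0.14 (edgeR adjusted p = 0.462), and EMX1-FL lay 0.35 ± 0.14 below EMX1-X1 on the log2 scale (a fold change of -0.35, edgeR adjusted p = 0.611). In EMX1-FL against vector control NRP2 had the smallest p of the 29 tested genes. It did not reach the study's fold threshold, a log2 fold change of at least 1 in size. Within the library sides the NRP2 difference had the same direction, at -0.92 on side A and -0.77 on side B for EMX1-FL, and -0.55 on both sides for EMX1-X1. Under 23 alternative settings the EMX1-FL difference in NRP2 stayed between -0.96 and -0.76, the unadjusted p stayed below 0.05 in 23 of 23, and the adjusted p ranged from 5.22e-06 to 0.365. In these bulk libraries, fewer cells expressing a gene and less RNA per cell cannot be told apart.

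NRP1, the neuropilin bound by SEMA3A and VEGFA, was near the lower end of what could be tested. It had 0.814, 0.829 and 0.742 CPM in vector control 1 to 3, 1.69, 1.31 and 1.16 CPM in EMX1-FL and 1.21, 0.914 and 0.727 CPM in EMX1-X1. The EMX1-FL libraries lay above all vector control libraries, on 25 to 38 counts each against 18 to 19. The log2 fold change for EMX1-FL against vector control was 0.80 ± 0.37, which missed the threshold (edgeR adjusted p = 0.864). SEMA3A, its best known ligand, was at 36.9 to 75.8 TPM in these libraries, against 0.21 to 0.54 TPM for NRP1.

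**Figure D2:**
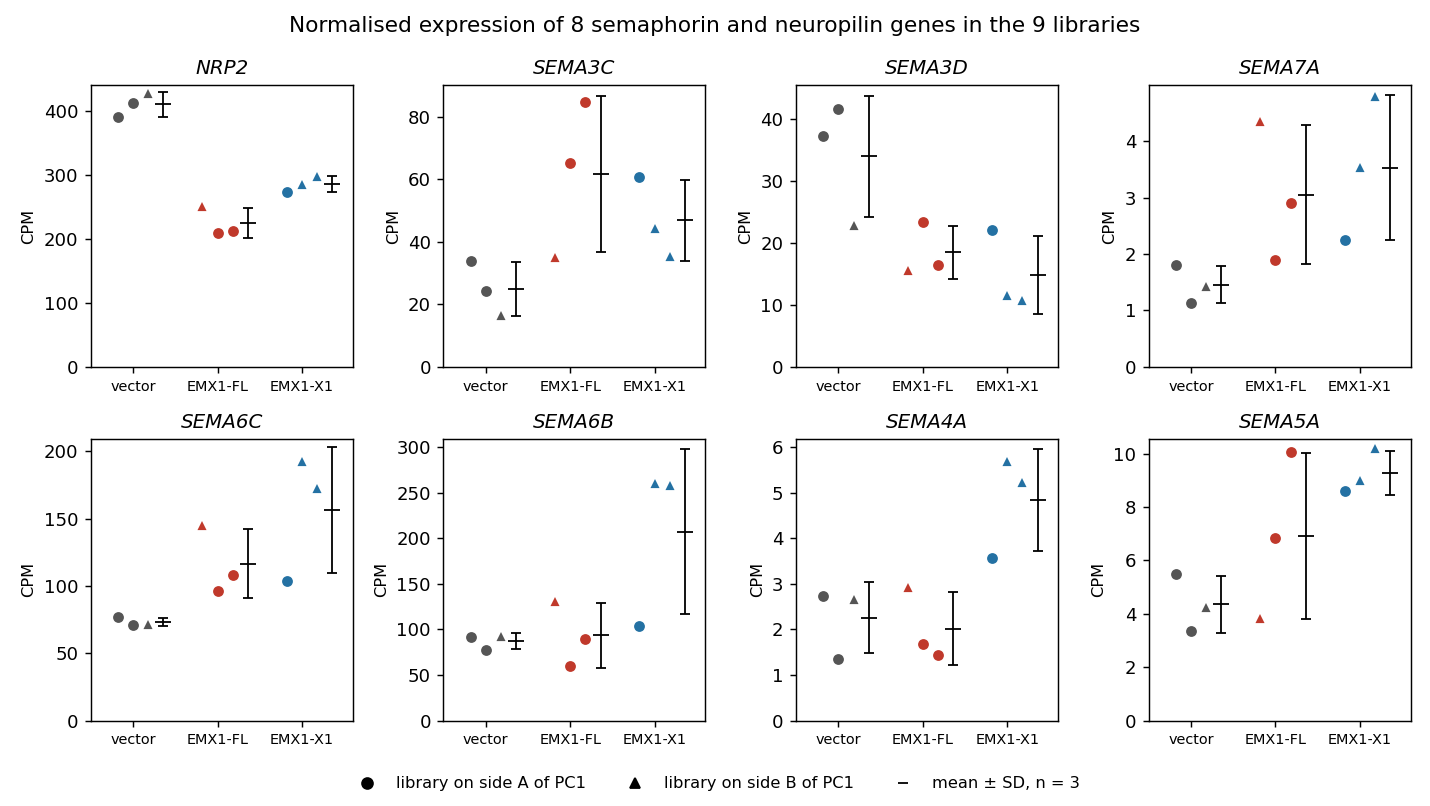
Normalised expression (CPM, axes from 0) of NRP2, SEMA3C, SEMA3D, SEMA7A, SEMA6C, SEMA6B, SEMA4A and SEMA5A in each library, with circles for side A and triangles for side B of the first principal component and the mean ± SD of 3 libraries beside each group. The NRP2 groups are apart whatever the side, while in EMX1-X1 the 2 triangles of SEMA6B, at 261 and 258 CPM, stand far above the circle at 103.6 CPM.

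Among the 7 secreted class 3 ligands, SEMA3C passed the threshold as higher in EMX1-FL and SEMA3D as lower in EMX1-X1. SEMA3C, which signals through neuropilins and plexins and is known from outflow tract development, had 34.0, 24.2 and 16.6 CPM in vector control 1 to 3. It had 35.1, 65.3 and 84.7 CPM in EMX1-FL and 60.7, 44.4 and 35.4 CPM in EMX1-X1. Every overexpression library lay above every vector control library, although EMX1-FL 1 and EMX1-X1 3 exceeded vector control 1 only narrowly. SEMA3C passed the study's threshold, an unadjusted p below 0.05 with a log2 fold change of at least 1 in size, in EMX1-FL (1.31 ± 0.34, edgeR adjusted p = 0.289). In EMX1-X1 its fold change of 0.91 ± 0.34 stayed below the fold threshold (edgeR adjusted p = 0.568). Its unadjusted p was below 0.05 there as well, but not without vector control 2 (0.87), vector control 3 (0.67) or EMX1-X1 1 (0.66). SEMA3C was lower on side B, with a side B minus side A difference of -0.65 on the log2 scale, and compared within sides its fold changes were 1.37 (A) and 1.08 (B) for EMX1-FL, and 1.08 (A) and 1.25 (B) for EMX1-X1. With the GC correction the EMX1-X1 fold change of SEMA3C was 1.08 with an adjusted p of 0.0213 by edgeR, within a range of 0.00149 to 1 over the alternatives. The EMX1-FL call of SEMA3C was kept in 23 of 23 alternatives.

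SEMA3D, a secreted ligand known from the guidance of endothelial and neural crest cells, moved in the opposite direction. Its level was 37.3, 41.7 and 23.0 CPM in vector control 1 to 3, 15.7, 23.3 and 16.4 CPM in EMX1-FL and 22.05, 11.6 and 10.8 CPM in EMX1-X1. The EMX1-X1 libraries lay below all vector control libraries, EMX1-X1 1 only narrowly below vector control 3, while EMX1-FL 2 overlapped vector control 3. The fold change passed the threshold in EMX1-X1 (-1.20 ± 0.31, edgeR adjusted p = 0.433) and was -0.88 ± 0.31 in EMX1-FL (edgeR adjusted p = 0.637), where the unadjusted p was below 0.05, though not without vector control 2 (-0.72). Within sides, the EMX1-X1 difference of SEMA3D was -0.84 (A) and -1.03 (B), and with the GC correction -1.01. The EMX1-X1 call of SEMA3D was lost with the library side as a covariate, with or without the GC correction. There the fold change fell just short of the threshold, and its smallest size over the alternatives was -0.988. SEMA3E, which binds plexin D1 without a neuropilin, had log2 fold changes of -0.69 ± 0.28 in EMX1-FL and -0.74 ± 0.28 in EMX1-X1, on 58 to 130 counts per library. Both had unadjusted p below 0.05 and were under the fold threshold, with edgeR adjusted p of 0.796 and 0.568. The unadjusted p stayed below 0.05 in 16 of 23 alternatives in EMX1-FL, but not without vector control 1 or 2 or EMX1-FL 1 or 2, and in 17 of 23 in EMX1-X1, but not without vector control 1 or 2 or EMX1-X1 2 or 3. The SEMA3E fold change came down to -0.37 and -0.40.

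SEMA3C, SEMA3E, SEMA3A and SEMA3D lie in this order on chromosome 7 between 80742538 and 85186855 (GRCh38, Ensembl release 99), all on the minus strand. SEMA3A, a collapsing factor for growth cones, lies between SEMA3E and SEMA3D, and its fold changes of -0.05 ± 0.29 in EMX1-FL and -0.38 ± 0.29 in EMX1-X1 had edgeR adjusted p of 0.997 and 0.721. The semaphorins of this interval thus differed in direction. On chromosome 3, SEMA3B had a fold change of 0.67 ± 0.28 in EMX1-X1 (edgeR adjusted p = 0.584), which was 0.17 with the GC correction. SEMA3F and SEMA3G did not have unadjusted p below 0.05 against the vector control in either group.

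Of the 6 class 4 ligands, which are membrane proteins, only SEMA4A passed the threshold. SEMA4A is studied mainly in T cells and the retina. It had 2.74, 1.35 and 2.68 CPM in vector control 1 to 3, 2.93, 1.68 and 1.43 CPM in EMX1-FL and 3.58, 5.69 and 5.25 CPM in EMX1-X1, on 31 to 137 counts per library. All EMX1-X1 libraries lay above all others. The fold change was 1.10 ± 0.36 for EMX1-X1 against vector control (edgeR adjusted p = 0.536) and -1.26 ± 0.36 for EMX1-FL against EMX1-X1 (edgeR adjusted p = 0.611). The EMX1-FL libraries did not differ detectably from the vector control (-0.16 ± 0.37, edgeR adjusted p = 0.997). SEMA4A was 0.94 higher on side B than on side A on the log2 scale, and within sides its EMX1-X1 difference was 0.86 (A) and 1.01 (B). The SEMA4A call against the vector control was lost without vector control 2 (0.82) or EMX1-X1 2 (0.96), and with the GC correction (0.85). SEMA4B, SEMA4C, SEMA4D, SEMA4F and SEMA4G had fold changes between -0.06 and 0.41 against the vector control, and none had p below 0.05 in either comparison. For SEMA4G, 27.4% of the exon bases are shared with other annotated genes, so its count is uncertain.

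SEMA5A, a class 5 membrane ligand with thrombospondin repeats, was higher in EMX1-X1. It had 5.48, 3.36 and 4.24 CPM in vector control 1 to 3, 3.86, 6.82 and 10.1 CPM in EMX1-FL and 8.61, 9.02 and 10.2 CPM in EMX1-X1. The EMX1-X1 libraries lay above every vector control library, whereas EMX1-FL ran from within the vector control range to the EMX1-X1 range. The EMX1-X1 fold change was 1.09 ± 0.32 (edgeR adjusted p = 0.482). SEMA5A hardly differed between the sides (-0.04), and with the GC correction the EMX1-X1 fold change was 1.16. Without vector control 2 it was 0.91, below the fold threshold. Its EMX1-FL fold change of 0.66 ± 0.32 missed the threshold (edgeR adjusted p = 0.888). Within sides the EMX1-X1 difference of SEMA5A was 0.99 (A) and 1.16 (B). The EMX1-FL difference was 0.94 (A) and -0.13 (B), so its direction was not the same on both sides. EMX1-FL against EMX1-X1 was -0.05 (A) and -1.30 (B).

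In class 6, whose members bind class A plexins, SEMA6B and SEMA6C were higher in EMX1-X1. SEMA6C had 76.8, 71.2 and 71.5 CPM in vector control 1 to 3, 145.5, 96.2 and 108.0 CPM in EMX1-FL and 103.4, 192.6 and 172.5 CPM in EMX1-X1. Both overexpression groups lay entirely above the vector control. The SEMA6C fold change was 1.09 ± 0.24 in EMX1-X1 (edgeR adjusted p = 0.31) and 0.67 ± 0.24 in EMX1-FL (edgeR adjusted p = 0.615). Within sides the EMX1-X1 difference of SEMA6C was 0.48 (A) and 1.35 (B), and with the GC correction it was 0.62, no longer past the fold threshold. Without EMX1-X1 2 it was 0.92, also short of it. The EMX1-FL difference of SEMA6C was 0.67 with that correction.

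SEMA6B had 92.3, 77.6 and 92.5 CPM in vector control 1 to 3, 131.0, 60.3 and 89.4 CPM in EMX1-FL and 103.6, 261 and 258 CPM in EMX1-X1. The rise in EMX1-X1 was carried by libraries 2 and 3, both on side B, and EMX1-X1 1 lay below EMX1-FL 1. The fold change of SEMA6B was 1.25 ± 0.34 for EMX1-X1 against vector control (edgeR adjusted p = 0.462) and -1.15 ± 0.34 for EMX1-FL against EMX1-X1 (edgeR adjusted p = 0.611). SEMA6B has the highest GC content of the 29 genes tested (67.7%) and was 1.02 higher on side B. Within sides its EMX1-X1 difference was 0.29 (A) and 1.49 (B). With the GC correction it was 0.62 against the vector control and -0.57 for EMX1-FL against EMX1-X1, both under the fold threshold. The call between the isoforms was also lost without EMX1-FL 2 (-0.92), EMX1-X1 2 (-0.95) or EMX1-X1 3 (-0.97).

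SEMA6A did not pass the fold threshold in EMX1-FL, with a fold change of 0.89 ± 0.30 (edgeR adjusted p = 0.567) on 42 to 119 counts per library, and all EMX1-FL libraries of SEMA6A lay above both other groups. SEMA6D had no unadjusted p below 0.05 in any comparison.

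SEMA7A, the GPI-anchored class 7 ligand that binds plexin C1 and beta1 integrin, passed the threshold with both isoforms. It had 1.80, 1.14 and 1.44 CPM in vector control 1 to 3, 4.35, 1.90 and 2.91 CPM in EMX1-FL and 2.25, 3.53 and 4.81 CPM in EMX1-X1. All overexpression libraries lay above all vector control libraries, on 26 to 119 counts each. The fold change was 1.06 ± 0.38 in EMX1-FL (edgeR adjusted p = 0.653) and 1.27 ± 0.38 in EMX1-X1 (edgeR adjusted p = 0.487). SEMA7A was 0.73 higher on side B. Within sides it differed by 0.68 (A) and 1.54 (B) in EMX1-FL and by 0.62 (A) and 1.46 (B) in EMX1-X1. With the GC correction the fold changes of SEMA7A were 1.03 and 0.90, and the second fell short of the fold threshold. The call was also lost in EMX1-FL without vector control 2 (0.89) or EMX1-FL 1 (0.71), and in EMX1-X1 without library 3 (0.97).

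No plexin passed the threshold. PLXNB2, the most abundant plexin and a receptor for class 4 semaphorins, had 107.9, 105.1 and 123.9 CPM in vector control 1 to 3, 132.9, 98.95 and 99.8 CPM in EMX1-FL and 109.7, 176.2 and 178.6 CPM in EMX1-X1. Its fold change was 0.46 ± 0.21 in EMX1-X1 (edgeR adjusted p = 0.612) and -0.02 ± 0.21 in EMX1-FL (edgeR adjusted p = 0.999). PLXNA1, a co-receptor with neuropilins for class 3 ligands, had 26.7, 31.4 and 32.9 CPM in vector control 1 to 3, 43.1, 27.2 and 33.6 CPM in EMX1-FL and 32.0, 47.8 and 47.1 CPM in EMX1-X1. Both genes were highest in EMX1-X1 2 and 3, with EMX1-X1 1 near the vector control. PLXNB2, PLXNA3 (0.58 ± 0.21) and PLXNB1 (0.63 ± 0.23) had unadjusted p below 0.05 in EMX1-X1, with edgeR adjusted p of 0.612, 0.568 and 0.566. With the GC correction the EMX1-X1 fold changes were 0.04 for PLXNB2, 0.11 for PLXNA1, 0.33 for PLXNA3 and 0.24 for PLXNB1. PLXNA2, PLXNB3, PLXNC1 and PLXND1 had no unadjusted p below 0.05 in any comparison. PLXNB3 shares 20.4% and PLXNC1 9.9% of their exon bases with other annotated genes.

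**Figure D3:**
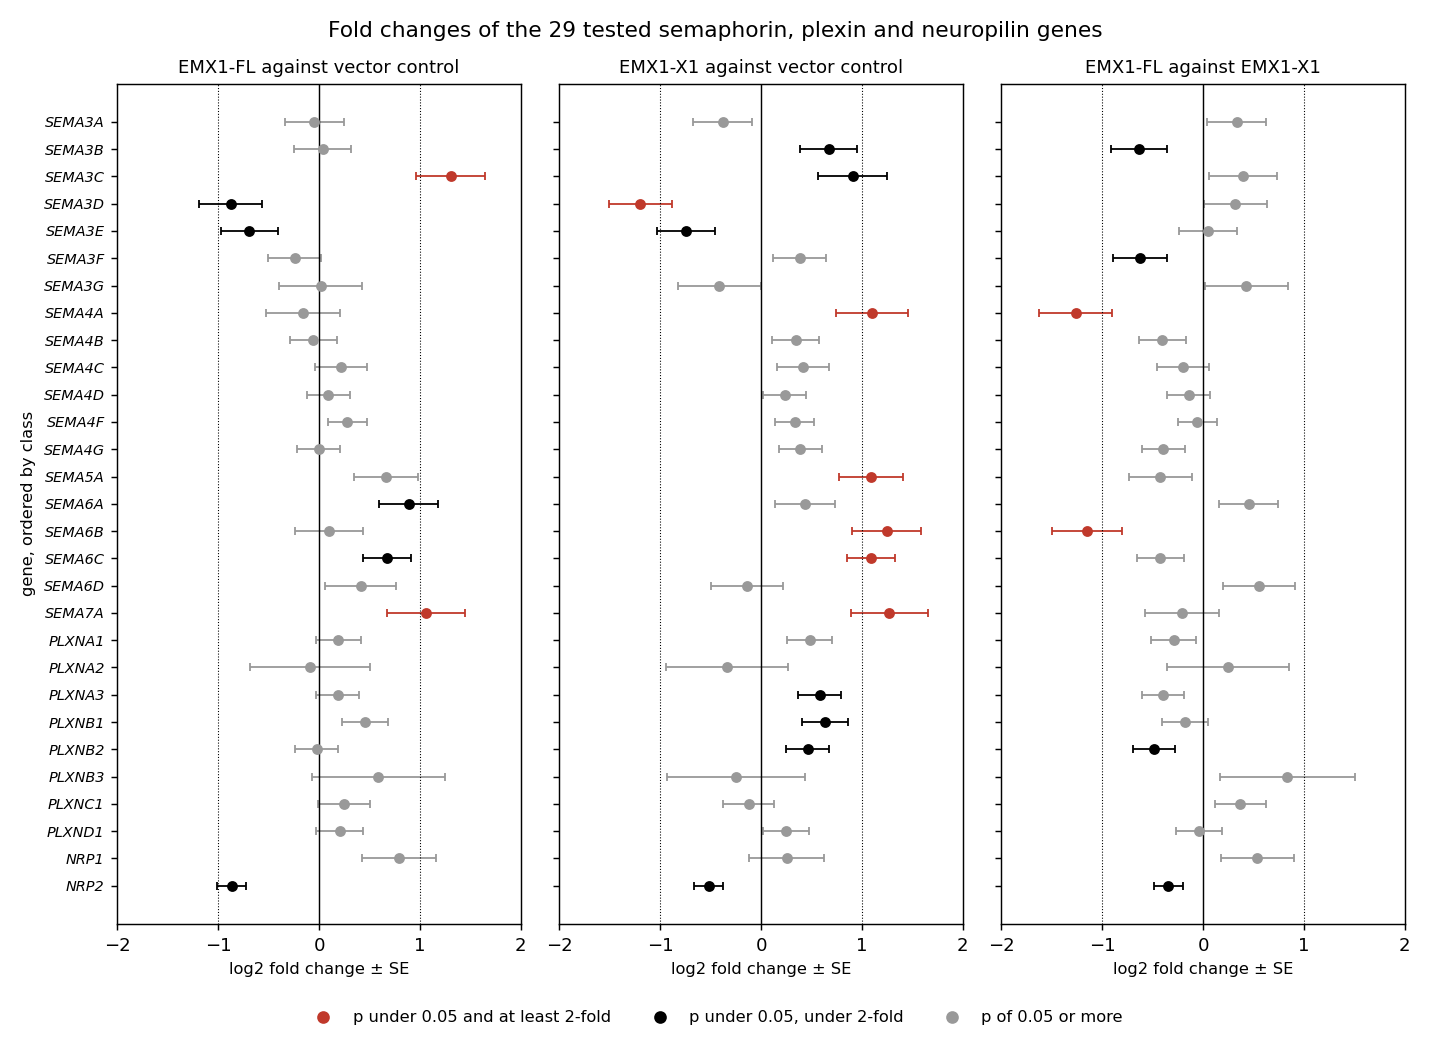
Log2 fold change ± SE of the 29 tested genes in 3 panels, each overexpression group against the vector control and then the 2 isoforms against each other, with dotted lines at -1 and 1 and colours for the threshold. SEMA3C and SEMA7A pass in the first panel, 6 genes in the second and SEMA4A and SEMA6B in the third, and NRP2 has the shortest error bars, at -0.87, -0.52 and -0.35.

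Counted over all 29 tested genes, 2 passed the threshold as higher in EMX1-FL (SEMA3C and SEMA7A) and 0 as lower, where 2.04% of all tested genes were called higher and 0.382% lower. Without overlap between the libraries, 5 were higher and 1 lower in EMX1-FL, where 10.5% of all genes had no overlap. In EMX1-X1, 5 passed as higher (SEMA4A, SEMA5A, SEMA6B, SEMA6C and SEMA7A) and 1 as lower (SEMA3D), against 1.95% and 0.544% of all genes. There, 9 were higher and 3 lower without overlap, against 14.7% of all genes. Both comparisons use the same vector control libraries. The 4 genes NRP2, SEMA3C, SEMA6C and SEMA7A lay apart from the vector control in the same direction in both, as did 4.29% of all genes. Unadjusted p was below 0.05 for 7 of the 29 in EMX1-FL (4 higher, 3 lower), beside 5.80% of all genes, and for 13 in EMX1-X1 (10 higher, 3 lower), beside 8.11%. No gene of the 29 had an adjusted p below 0.05 by edgeR's quasi-likelihood test in the fit of all 9 libraries with group as the only term and low genes filtered out. Under the GC correction NRP2, SEMA3C, SEMA3D and SEMA6C did in EMX1-FL and NRP2 and SEMA3C in EMX1-X1. With the library side as a covariate NRP2, SEMA3C and SEMA3D did in both and SEMA6C in EMX1-X1 as well. Without a filter 2 did in EMX1-FL, 5 in EMX1-X1 and 1 between the isoforms, and without EMX1-FL 1 there were 2 in EMX1-FL (NRP2 and SEMA3C) and 3 between the isoforms (SEMA3B, SEMA4A and SEMA6B). By DESeq2, NRP2 and SEMA3C did in EMX1-FL and SEMA6C did in EMX1-X1. Over all genes such counts, here with the fold threshold added, moved too. In EMX1-FL and EMX1-X1 they were 13 and 1 without correction. They were 94 and 28 under the GC correction, 111 and 27 with the side and 125 and 48 by DESeq2. Without a filter (36554 genes) they were 120 in EMX1-FL, 112 in EMX1-X1 and 59 between the isoforms. Without EMX1-FL 1 (19195 genes) they were 88 in EMX1-FL and 490 between the isoforms, beside 0 with all 9 libraries. The median log2 fold change of the 29 was 0.18 in EMX1-FL, beside 0.04 for all tested genes, and 0.38 in EMX1-X1, beside 0.01.

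Between the isoforms, SEMA4A and SEMA6B passed as lower in EMX1-FL than in EMX1-X1, where 0.668% of all genes did, and 0 passed as higher, where 0.748% did. Of the 29, 1 was higher and 2 were lower without overlap, against 8.38% of all genes. An unadjusted p below 0.05 was found for 6, namely NRP2, PLXNB2, SEMA3B, SEMA3F, SEMA4A and SEMA6B, all lower in EMX1-FL, beside 7.63% of all genes in either direction. The median was -0.18, beside 0.02 for all genes.

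The genes that were higher on side B were mostly those with GC-rich transcripts. Across the 29 genes, which share the same 9 libraries, the side difference rose with GC content (Spearman's correlation 0.75, a description). In EMX1-X1, 14 of the 16 genes with at least 55% GC had a positive fold change, with a median of 0.47, and 6 of the other 13 did, with a median of -0.12. In EMX1-FL these were 11 of 16, with a median of 0.14, and 8 of 13, with a median of 0.25. With the GC correction, 3 genes passed the threshold in EMX1-X1 (SEMA3C and SEMA5A higher, SEMA3D lower), where 2.12% of all genes passed in either direction, and the median of the 29 was 0.09. In EMX1-FL, 3 passed (SEMA3C and SEMA7A higher, SEMA3D lower), beside 2.69% of all genes, with a median of 0.19. Between the isoforms, 1 passed (SEMA4A), beside 1.18% of all genes, and the median was 0.05. The part of library preparation in the side difference was not tested.

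**Figure D4:**
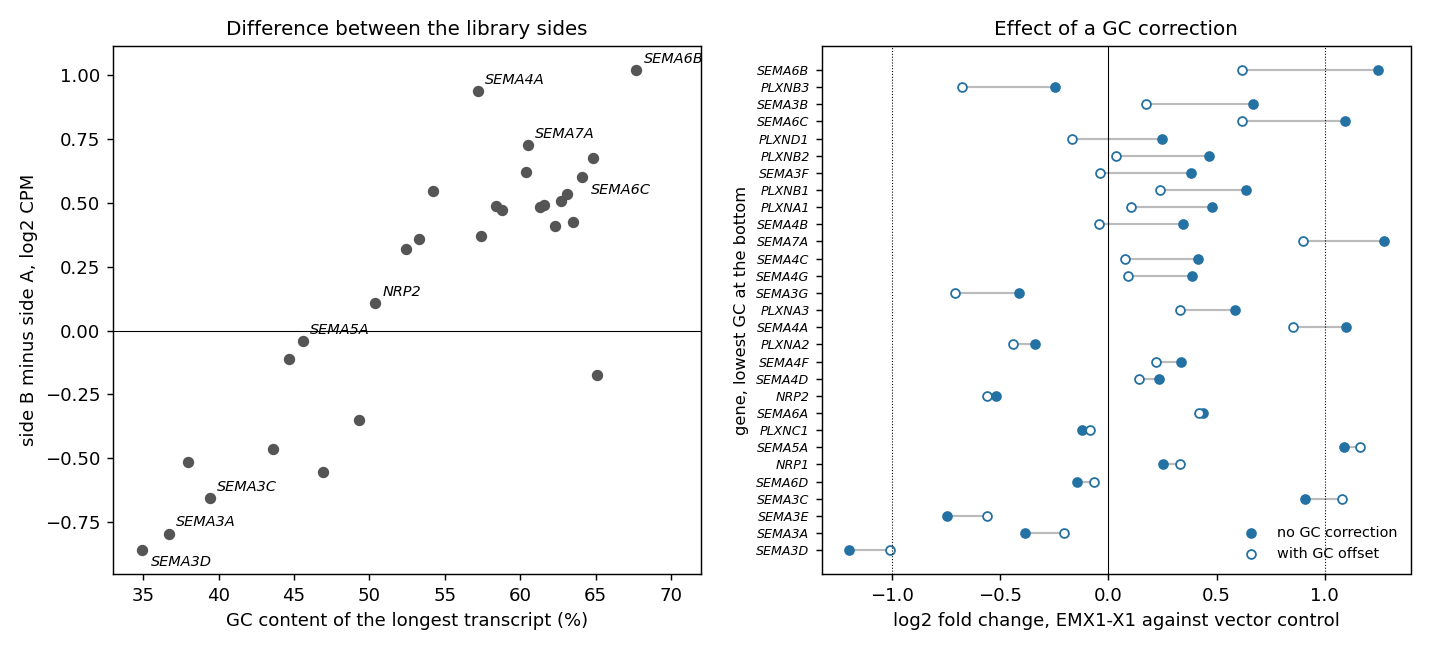
Left, GC content of the longest transcript (%) against the side B minus side A difference (log2 CPM) of the 29 tested genes. Right, log2 fold change of EMX1-X1 against vector control without (filled) and with (open) a GC correction, ordered by GC content. SEMA6B moves from 1.25 to 0.62 and SEMA6C from 1.09 to 0.62, while SEMA3C moves from 0.91 to 1.08 and NRP2 from -0.52 to -0.56.

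A list of 44 partners of the pathway (co-receptors, other neuropilin ligands, effectors and the convertase FURIN) had 40 tested genes. Of these, 2 passed the threshold as higher in EMX1-FL, beside 2.04% of all genes, and 0 in the other comparisons. MET, the hepatocyte growth factor receptor that couples to class B plexins, had 1.33, 1.00 and 1.11 CPM in vector control 1 to 3, 2.04, 3.33 and 2.96 CPM in EMX1-FL and 2.46, 1.12 and 0.97 CPM in EMX1-X1. All EMX1-FL libraries of MET lay above the vector control (1.27 ± 0.39, edgeR adjusted p = 0.472). RND3 had 1.499, 1.40 and 0.742 CPM in vector control 1 to 3, 1.15, 3.79 and 2.59 CPM in EMX1-FL and 1.79, 1.66 and 1.37 CPM in EMX1-X1. EMX1-FL 1 lay within the vector control range of RND3, and the fold change of 1.05 ± 0.44 had an edgeR adjusted p of 0.803. RND3 was called in 12 of 23 alternatives and lost, among others, without vector control 2 (1.16), vector control 3 (0.78), EMX1-FL 2 (0.60) or EMX1-FL 3 (1.03) and with the GC correction (0.88), while MET was called in 22 of 23. VEGFB, which binds NRP1, did not pass it in EMX1-FL (-0.54 ± 0.25, edgeR adjusted p = 0.86). L1CAM, an adhesion molecule that associates with NRP1, did not pass it in EMX1-X1 (0.94 ± 0.28, edgeR adjusted p = 0.487). Unadjusted p was below 0.05 for 4 of the 40 partners in EMX1-FL, 5 in EMX1-X1 and 5 between the isoforms, beside 5.80%, 8.11% and 7.63% of all genes. The median fold changes of the 40 were 0.00, 0.14 and -0.12. KDR and FLT1, the VEGF receptors with which neuropilins act in endothelium, were at most 0.185 CPM in all libraries.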

How the data were processed

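RNA-seq was performed on SNU-398 cells, 3 libraries per group as labelled. The deposited count table holds unnormalised read-pair counts by gene name, by its header made with featureCounts 2.0.1 on STAR alignments and Ensembl release 99 of GRCh38. The submitters' processing notes name featureCounts 2.0.6, and the methods name RSEM. Strand was not used in counting by the header, and read pairs in exons shared between genes were left out by default. The authors also deposited log2(TPM + 1) values, which were recomputed from the counts and listed lengths to within 5.0e-06 and converted back to TPM for levels between genes.

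Genes passing filterByExpr (18574) were tested with edgeR 4.0.16 in R 4.3.3 (TMM factors, quasi-likelihood F test, a model of group over all 9 libraries, residual degrees of freedom 6). Adjusted p is Benjamini-Hochberg over all genes tested. A gene was called by the study's threshold, an unadjusted p below 0.05 and a log2 fold change of at least 1 in size. CPM used TMM factors. With 3 against 3 libraries an exact permutation test cannot go below p = 0.1, so none was used. GC content came from the longest GENCODE release 29 transcript, found for 95.6% of tested genes and 29 of 29 members. The GC correction was a loess offset per library (span 0.3). Alternatives used DESeq2 1.42.0, limma 3.58.1, other scaling factors and filters, the library side as a covariate, a replicate block and each library left out. Values in every library are given for called genes, genes apart from the vector control in both groups, and the 2 most abundant ligands, plexins and neuropilins. Partners past the threshold are named, with at most 4 others. The members and lists were chosen with earlier results of these data known. The test recovered simulated fold changes of known size. Those counts were drawn gene by gene without the split by library side and GC content, so they do not check the test under that split. Promoter windows were taken from RefSeq (GRCh38.p14).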

Additional observations from a re-analysis of the deposited data

Results flagged for a closer look

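SEMA4A and SEMA6B are listed because they passed the study's unadjusted threshold between the overexpression groups. They did so as lower in EMX1-FL, as did 0.668% of all tested genes. The log2 fold change of EMX1-FL against EMX1-X1 was -1.262 for SEMA4A and -1.15 for SEMA6B, with an edgeR adjusted p of 0.611 for both, so neither passed after correction over all genes tested. SEMA4A was lower in 3 of 3 EMX1-FL libraries than in any EMX1-X1 library. SEMA6B overlapped, with EMX1-X1 1 at 103.6 CPM below EMX1-FL 1 at 131.0 CPM. With the GC correction the difference was -1.02 for SEMA4A and -0.57 for SEMA6B. Groups of 3 libraries were too small for a formal test of outlying libraries, but each library was left out in turn. The SEMA4A call between the isoforms was kept each time. The SEMA6B call was lost without EMX1-FL 2, EMX1-X1 2 or EMX1-X1 3.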

How the results depend on the processing

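The number of genes called was 2 in EMX1-FL, 6 in EMX1-X1 and 2 between the isoforms. It was the same with RLE or upper-quartile factors, library size alone, no filter, a stricter filter, DESeq2 and a fit of the 6 libraries compared. Requiring an adjusted p below 0.05 with the fold threshold left 0 in each, and an unadjusted p alone gave 7, 13 and 6. With limma on log2(TPM + 1), which shrinks low genes by construction, 1, 3 and 1 were called. In EMX1-X1 the count fell to 3 with the library side as a covariate, 3 with the GC correction, 2 with both and 3 with the GC correction and the replicate block. Between the isoforms it fell to 1, 1, 0 and 1 under the same settings. The settings that combine GC with side and GC with block were chosen after seeing the data.

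Leaving out 1 library gave 1 to 3 called genes in EMX1-FL, 4 to 7 in EMX1-X1 and 1 to 2 between the isoforms. The lowest counts were 1 without EMX1-FL 1, 4 without vector control 2 or EMX1-X1 2, and 1 without EMX1-FL 2, EMX1-X1 2 or EMX1-X1 3. Deviations of each gene from its group mean were correlated between libraries of different groups. Same-numbered libraries correlated at -0.126 on average and the others at 0.0596. Of the 9 same-numbered pairs, 3 exceeded 0.1. Those 3 pairs each had both libraries on the same side of the first principal component. The correlations follow that split, so they cannot show whether replicate numbers mark pairs. With a replicate block 2, 6 and 2 genes were called. Of 230 repeats over 10 gene calls, 193 kept the call, 37 lost it in the same direction and 0 reversed. SEMA3C in EMX1-FL kept it in all 23, SEMA3D in 21, SEMA5A in 21, SEMA6B in 19, SEMA6C in 18, SEMA7A in 18 and SEMA4A in 16 of 23 in EMX1-X1. Where a call was lost the cause was not tested. Depth limits PLXNA2 (4 to 27 counts per library), PLXNB3 (5 to 34) and NRP1 (18 to 38) most.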

Other observations

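Between SEMA3C and SEMA3D on chromosome 7, 9 genes were tested, the 4 semaphorins among them. CACNA2D1 and PCLO, which lie between SEMA3C and SEMA3E, had log2 fold changes of 0.25 and -0.14 in EMX1-FL and 0.06 and -0.37 in EMX1-X1 and edgeR adjusted p of 0.997, 0.997, 0.958 and 0.678. AC003984.1, AC093716.1 and HMGN2P11 lie between SEMA3A and SEMA3D. Their fold changes were 0.35, -1.18 and -0.37 in EMX1-FL (edgeR adjusted p of 0.997, 0.981 and 0.997). In EMX1-X1 they were 0.39, -0.93 and -1.08 (edgeR adjusted p of 0.896, 0.699 and 0.689). This interval was looked at after the values of the semaphorins were known.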
